A study of Mus musculus with 36 samples.

Results

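The E2F family of transcription factors was followed across mouse blood progenitors, fibroblasts and cultured bone marrow cells with and without the splicing factor ZRSR2. Its 8 members, E2f1 to E2f8, were taken by gene name from the GENCODE M21 annotation, and an intron was assigned to a member where its mm10 coordinates matched an annotated intron of that gene. They account for 8 of the 31890 genes with a listed intron and for 61 of the 219945 introns listed in every library. The introns listed per gene number 6 each in E2f1, E2f2 and E2f6, 7 each in E2f3 and E2f5, 9 in E2f4, and 10 each in E2f7 and E2f8. The genes are spread over the genome, E2f1 to E2f8 lying on chromosomes 2, 4, 13, 8, 3, 12, 10 and 7 in that order.

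All libraries came from C57BL/6 mice and were made from polyA-selected RNA. Zrsr2-deficient (KO) mice and wild-type (WT) mice, all male littermates, gave 3 libraries each of 3 sorted precursor types: the common myeloid precursor (CMP), the precursor of granulocytes and monocytes (GMP) and that of megakaryocytes and erythroid cells (MEP). Male KO and WT embryos gave 3 libraries each of fibroblasts (MEF). Lin-Kit+ bone marrow cells of KO or WT mice, cultured ex vivo, carried the hairpin sh1 or sh10 against Zrsr1, a relative of Zrsr2, or a control hairpin. Each of these 6 groups has 1 library from experiment 1 and 1 from experiment 2. The labels do not say how Zrsr2 was deleted, nor which cell types the Lin-Kit+ cultures hold. Spliced counts per library ranged from 44083233 to 84832431 in progenitors, from 43514139 to 61124920 in MEF and from 30481450 to 43345548 in Lin-Kit+ cells. Zrsr2 had 0 to 57 spliced reads in the KO libraries, against 725 to 2147 in the WT libraries. The sorted cells held their markers: 4 GMP genes summed to 26870 to 29290 counts-per-million (CPM, of all spliced reads) in KO GMP and 25350 to 30610 in WT GMP, against 23.9 to 52.1 in KO MEP and 34.8 to 53.1 in WT MEP. Zrsr1 has no listed intron, so its depletion was not checked.

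E2F proteins bind a common DNA motif and turn genes for DNA replication and cell division on or off as cells enter the cell cycle. E2f1, E2f2 and E2f3 are known as activators held in check by the retinoblastoma protein, E2f4 and E2f5 act mainly as repressors with the pocket proteins, and E2f6 represses genes with a Polycomb complex. E2f7 and E2f8 are atypical members that bind DNA without a dimer partner and repress E2F targets. Several E2f genes carry a minor-class (U12-type) intron, which is removed by the minor spliceosome, and ZRSR2 is known to recognise the 3′ end of such introns.

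The coding introns of the members were placed on an alignment of their proteins, and 1 position is shared by 6 of the 8 genes. At alignment column 312, in the same codon phase, E2f1, E2f2, E2f3 and E2f6 have their intron 4 and E2f4 and E2f5 their intron 3, while E2f7 and E2f8 have none there. The exon sequences that meet at this position are shown because they are what the intron joins. They run 5′ to 3′ with the last 23 bases before and the first 22 bases after the intron, and capitals mark the codon that the intron splits:
E2f1, intron chr2:154561462-154562937, minus strand: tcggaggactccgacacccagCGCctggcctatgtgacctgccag
E2f2, intron chr4:136181445-136184422, plus strand: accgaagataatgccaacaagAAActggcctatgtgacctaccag
E2f3, intron chr13:29913519-29916845, minus strand: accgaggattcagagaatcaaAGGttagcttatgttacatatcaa
E2f4, intron chr8:105298697-105298995, plus strand: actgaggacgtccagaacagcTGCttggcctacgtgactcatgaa
E2f5, intron chr3:14588302-14601002, plus strand: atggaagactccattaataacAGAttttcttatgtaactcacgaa
E2f6, intron chr12:16820385-16822092, plus strand: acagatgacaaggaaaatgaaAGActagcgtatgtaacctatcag
Between pairs of these genes, 23 to 31 of the 45 bases are identical. Of all pairs of proteins E2f4 and E2f5 are the most alike, identical at 69.8% of aligned residues, followed by E2f2 and E2f3 at 58.1% and E2f1 and E2f3 at 52.4%. E2f7 and E2f8 are closest to each other, at 40.2%. The annotated intron 3 of E2f5 is not among the listed introns. A listed alternative of it ends 3 bases earlier, at 14600999.

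The splice sites themselves could be read only for E2f6, whose intron 4 lies inside an annotated retained-intron transcript. Its 5′ end, with 12 exon bases followed by 28 intron bases and the first 8 intron bases in capitals, is:
E2f6 intron 4, 5′ end: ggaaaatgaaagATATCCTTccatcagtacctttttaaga
Its 3′ end, with the last 40 intron bases and 12 exon bases, and with the branch point match and the last 2 intron bases in capitals, is:
E2f6 intron 4, 3′ end: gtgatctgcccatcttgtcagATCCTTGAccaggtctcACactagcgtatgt
The first 8 bases match the U12-type start ATATCCTT with 0 mismatches, and the intron ends in AC. The sequence ATCCTTGA differs from the U12-type branch point TTCCTTAA at 2 positions and starts 19 bases from the end of the intron. The next intron of the gene, E2f6 intron 5, could also be read and is not of this class, with 5 mismatches at its start. The class of the other members' shared introns was not read here.

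The levels of the members differed widely, and E2f4 was the most abundant in every cell type. Between genes, levels are compared as the spliced reads of the listed introns of the principal transcript, in CPM and divided by the number of those introns (CPM per intron), since genes with more introns collect more spliced reads. In WT CMP the means ± SD (n = 3) were 24.2 ± 2.43 for E2f4, 12.2 ± 0.232 for E2f8, 9.60 ± 0.617 for E2f1, 6.92 ± 1.55 for E2f6, 3.90 ± 0.197 for E2f3, 1.67 ± 0.122 for E2f2, 1.14 ± 0.178 for E2f7 and 0.976 ± 0.109 for E2f5. In that order E2f7 and E2f5 overlapped between libraries, and every other pair of neighbours was separated in all 3 libraries. In WT MEF the order was E2f4 with 7.81 ± 0.604, E2f1 with 6.47 ± 0.524, E2f6 with 2.52 ± 0.246, E2f3 with 2.38 ± 0.168, E2f5 with 1.43 ± 0.196, E2f8 with 1.16 ± 0.180, E2f7 with 0.512 ± 0.161 and E2f2 with 0.465 ± 0.169 CPM per intron. There the neighbours E2f6 and E2f3, E2f5 and E2f8, and E2f7 and E2f2 overlapped. In control-hairpin Lin-Kit+ cells E2f4 had 19.4 and 11.5 CPM per intron in KO cells and 22.46 and 12.03 in WT cells, ahead of E2f8 in each library. E2f2 stood at 5.20 to 7.71 in all 12 Lin-Kit+ libraries, against at most 1.80 in the 24 progenitor and MEF libraries; these sets were made with different kits and were not tested against each other. Behind these levels stand between 51 spliced reads, for E2f5 in 1 KO library with sh10, and 38773, for E2f4 in 1 WT MEP library.

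**Figure D1:**
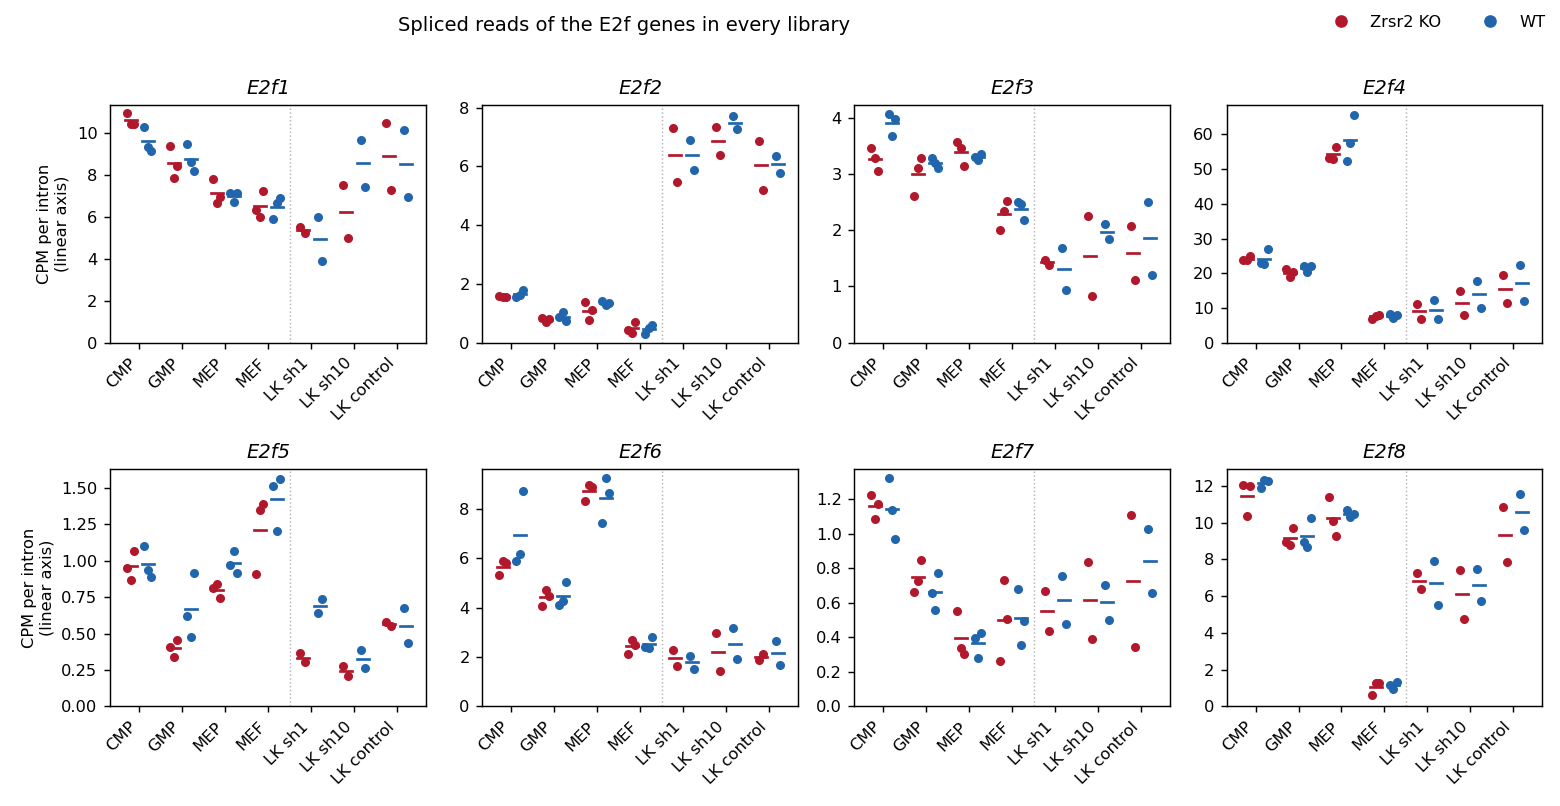
Level of the 8 E2f genes in all 36 libraries in CPM per intron, on linear vertical axes that differ between panels. Red points are Zrsr2 KO libraries and blue points WT libraries, bars are group means, LK stands for Lin-Kit+ cells, and the dotted line separates the 2 kits. E2f4 stands at 52.3 to 65.4 in WT MEP and E2f8 at 0.607 to 1.33 in MEF.

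The question between WT cell types was where each member is expressed. All changes are log2 fold changes ± SE of summed spliced counts, with adjusted p-values from edgeR's quasi-likelihood test over all genes. In bulk RNA, fewer expressing cells and less RNA per cell cannot be told apart. E2f4, the abundant repressor, had 470.5, 518 and 589 CPM in WT MEP, against 199, 185 and 199.5 in WT GMP and 206, 205 and 243 in WT CMP. All MEP libraries lay above all others. It was 1.41 ± 0.09 higher in MEP than in CMP (adjusted p = 2.02e-09) and 1.44 ± 0.09 higher in MEP than in GMP (adjusted p = 7.96e-10). E2f6, the Polycomb-linked repressor, was also highest in MEP on average, with 44.5, 55.4 and 51.9 CPM in WT MEP, 24.6, 25.6 and 30.3 in WT GMP and 35.4, 37.0 and 52.3 in WT CMP. Its MEP and CMP libraries overlapped while its MEP and GMP libraries did not. The edgeR log2 difference was 0.92 ± 0.13 between MEP and GMP (adjusted p = 2.40e-05), 0.43 ± 0.13 between MEP and CMP (adjusted p = 0.0144) and -0.50 ± 0.13 between GMP and CMP (adjusted p = 0.0120).

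The atypical E2f7 was lowest in MEP and highest in CMP. It had 3.98, 2.81 and 4.25 CPM in WT MEP, 6.58, 5.58 and 7.71 in WT GMP and 13.2, 11.4 and 9.68 in WT CMP. The groups did not overlap. By edgeR the log2 difference was -1.50 ± 0.22 between MEP and CMP (adjusted p = 2.41e-05), with one of -0.85 ± 0.21 between MEP and GMP (adjusted p = 0.00373) and of -0.65 ± 0.21 between GMP and CMP (adjusted p = 0.0328). Its paralog E2f8 had 103 to 107 CPM in WT MEP, 86.6 to 103 in WT GMP and 119 to 124 in WT CMP, and fell in GMP against CMP (log2 -0.25 ± 0.08, adjusted p = 0.0204 by edgeR).

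Among the activators, E2f1 had 38.9, 35.2 and 40.9 CPM in WT MEP, 50.9, 45.8 and 43.7 in WT GMP and 53.9, 48.3 and 47.0 in WT CMP. MEP libraries were the lowest. The edgeR differences were -0.29 ± 0.09 between MEP and GMP (adjusted p = 0.0151) and -0.24 ± 0.09 between MEP and CMP (adjusted p = 0.0401). E2f2 had 4.43 to 6.34 CPM in WT GMP against 9.38 to 10.8 in WT CMP, a log2 difference of -0.77 ± 0.18 (adjusted p = 0.00471), and it was 0.61 ± 0.18 higher in MEP than in GMP (adjusted p = 0.0107). E2f3, with 19.2 to 25.0 CPM in the 9 WT progenitor libraries, passed the test in no comparison among them. E2f5 was higher in MEP than in GMP (log2 0.54 ± 0.19, adjusted p = 0.0305).

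In counts, 4 of the 8 members passed between GMP and CMP, all lower, where 24.8% of 17563 genes passed and 12.3% were lower. Between MEP and CMP 4 passed, 2 higher and 2 lower, where 46.7% of genes passed, and between MEP and GMP 6 passed, 4 higher and 2 lower, where 45.8% passed. The share for MEP and CMP is close to that over all genes. Single libraries changed some calls. E2f7 between GMP and CMP lost its call without WT CMP 1 or 2 or WT GMP 1 or 2 (adjusted p up to 0.137), E2f8 without WT GMP 1 or 2 (adjusted p up to 0.0963), and E2f6 without WT GMP 1 or WT CMP 3 (adjusted p up to 0.0660), each by edgeR. E2f5 between GMP and CMP gained one without WT GMP 3 (log2 -0.68, adjusted p = 0.0139). Between MEP and CMP, E2f1 lost its call without WT CMP 1 or 2 or WT MEP 1 or 2, and E2f6 without WT CMP 1 or 2 or WT MEP 2. Between MEP and GMP, E2f5 lost its call without WT GMP 1 or 2 or WT MEP 1 or 2, E2f1 without WT GMP 1 or WT MEP 2 and E2f2 without WT GMP 3, while E2f8 gained one without WT GMP 3. The calls of E2f4 and of E2f7 between MEP and CMP were not lost in any of these fits.

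WT MEF differed from the mean of the 3 WT progenitor types in 6 of the 8 members, where 68.4% of 19544 genes passed. E2f8 had 11.7, 9.73 and 13.3 CPM in WT MEF against 86.6 to 124 in the 9 WT progenitor libraries, and fell by 3.04 on the log2 scale (SE 0.17, adjusted p = 7.25e-12 by edgeR). E2f4 had 74.2, 64.1 and 72.6 CPM in WT MEF, below every progenitor library, with a log2 difference of -1.85 ± 0.09 (adjusted p = 2.69e-13). E2f2, E2f6 and E2f3 were lower by the same test, at log2 -1.28, -1.19 and -0.41. E2f5 alone rose, with 10.7, 8.41 and 10.7 CPM in WT MEF against 3.33 to 7.34 in WT progenitors and a log2 difference of 0.88 ± 0.15 (adjusted p = 3.98e-05). E2f1, at 34.5 to 40.8 CPM in WT MEF and 35.2 to 53.9 in WT progenitors, did not pass, with a log2 difference of -0.08 under TMM scaling and 0.07 under RLE scaling. E2f7 did not pass (log2 -0.21). The median of all genes stood at 0.17 in this comparison, and at 0.32 under RLE scaling. The MEF libraries also held macrophage markers (Csf1r, Adgre1, Cd68), at a summed 264.6 to 1324 CPM in KO MEF and 192.3 to 1684 in WT MEF, and Ptprc at 29.5 to 126 CPM in KO MEF and 22.7 to 150 in WT MEF. Their part in the MEF values was not tested.

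**Figure D2:**
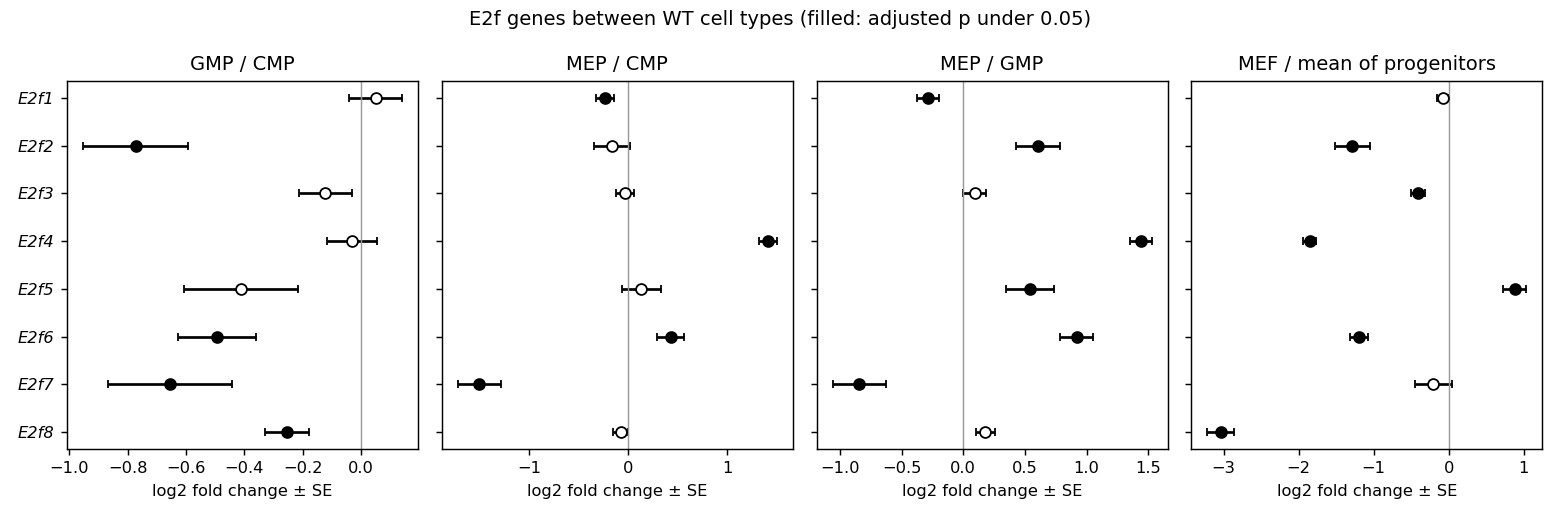
Log2 fold change ± SE of each E2f gene between WT cell types, from edgeR fits over all genes (n = 3 libraries per type). Filled points have an adjusted p under 0.05. E2f4 stands at 1.41 between MEP and CMP, and E2f8 at -3.04 between MEF and the mean of the progenitors.

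The partners and targets of the family also differed between cell types. Of 26 E2F targets that act in S phase, 16 rose and 0 fell in MEP against CMP, where 21.2% of genes rose, with a median log2 difference of 0.26 beside -0.05 over all genes. Cdc6, which loads the replicative helicase, was 1.09 higher and Orc1, a subunit of the origin recognition complex, 1.06 higher. In MEP against GMP 15 of the 26 rose and 1 fell, where 21.1% of genes rose. In GMP against CMP 3 rose and 5 fell, where 2194 and 2165 of 17563 genes did. In WT MEF against progenitors 26 of 26 fell, where 29.4% of genes fell, with a median log2 difference of -1.90. Of the 8 cyclins and cyclin-dependent kinases upstream, 2 rose and 4 fell in MEP against CMP, where 3720 and 4475 of 17563 genes did. Ccne1, the cyclin E gene that drives entry into S phase, was 2.77 higher on the log2 scale and Cdk4 0.25 higher, while the D-type cyclin genes Ccnd1 and Ccnd2 fell by 1.46 and 0.78. Of 5 tested inhibitors of cyclin-dependent kinases 4 fell, beside the same 4475 of 17563 genes, among them Cdkn1a by 3.32. Of the 3 pocket protein genes Rb1, the retinoblastoma gene, was 0.57 higher there, while Rbl2 fell by 0.36 and Rbl1 by 0.22, the last losing its call with the replicate block (adjusted p = 0.0516 by edgeR). Of the 10 Polycomb partners of E2f6, 6 rose and 2 fell in MEP against CMP, among them L3mbtl2 at 0.81 and Rnf2, a ubiquitin ligase subunit, at -0.62. In MEF against progenitors both dimer partners of the E2Fs fell, Tfdp1 by 1.19 and Tfdp2 by 1.44, as did Mybl2, an activator of mitotic genes, by 2.85.

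As a description of the patterns, the genes whose log2(CPM + 0.5) was most alike over the 24 progenitor and MEF libraries were listed for each member, out of 10396 genes with a mean of at least 5 CPM. The libraries share 4 cell types, so the values mainly follow the differences between them. E2f8 was most like Mcm6 (Pearson r = 0.998), Mcm3 (0.997) and Rad54l (0.996). E2f4 was most like Ppm1g (0.996), Abcf1 (0.995) and Dnaja3 (0.994), and E2f6 most like Dnajc21, Wrn and Acsl5 (0.980 to 0.983). E2f2 was most like Sema4d (0.956), E2f3 most like Sirt1 (0.928), E2f7 most like Wasf2 (0.919), E2f1 most like Tmem206 (0.909) and E2f5 most like Stn1 (0.889). Among the members themselves, E2f4 and E2f6 were the most alike pair at 0.959, and E2f5 and E2f8 the least at -0.53.

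Loss of Zrsr2 was then compared with WT in each cell type, to see whether the level of any member moved. In edgeR's quasi-likelihood test 0 of 8 members passed in CMP, GMP, MEP, MEF, or Lin-Kit+ cells with the control hairpin or with the Zrsr1 hairpins. Over all genes 0.0228% passed in CMP, 0.0171% in GMP, 0.0456% in MEP and 0% in MEF and in both Lin-Kit+ comparisons. At an unadjusted p under 0.05, 1039 genes stood out in CMP, 448 in GMP, 775 in MEP, 265 in MEF, 158 with the control hairpin and 346 with the Zrsr1 hairpins, and DESeq2 called 49, 21, 86, 14, 33 and 25 genes in the same order, none of them a member. On simulated counts for KO and WT cells with the control hairpin, the edgeR test recovered 0 of 100 genes changed 2-fold and 1 of 100 changed 4-fold, against 39 and 54 of 100 in CMP and 29 and 77 of 100 in MEF. E2f4 had 214, 214 and 224 CPM in KO CMP against 206, 205 and 243 in WT CMP, a log2 difference of -0.02 ± 0.09. In MEP it had 479, 476 and 508 CPM in KO libraries against 470.5, 518 and 589 in WT libraries. The groups overlapped in both.

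The lowest p-values belonged to E2f5, E2f3 and E2f6, and none passed. E2f5 had 2.84, 2.65 and 3.15 CPM in KO GMP against 4.29, 3.33 and 6.34 in WT GMP. The KO libraries were all below the WT libraries, at a log2 difference of -0.68 ± 0.20 (unadjusted p = 0.00310, adjusted p = 1 by edgeR). In MEP E2f5 likewise had 5.36 to 5.71 CPM in KO libraries against 6.17 to 7.13 in WT libraries (log2 -0.32 ± 0.19, adjusted p = 1). E2f3 had 21.1, 20.7 and 18.8 CPM in KO CMP against 25.0, 22.6 and 24.3 in WT CMP, without overlap (log2 -0.26 ± 0.09, adjusted p = 0.820 by edgeR). E2f6 had 31.8, 35.2 and 34.7 CPM in KO CMP against 35.4, 37.0 and 52.3 in WT CMP (log2 -0.30 ± 0.13, adjusted p = 0.833). E2f1 went the other way in CMP, with 57.75, 55.4 and 54.65 CPM in KO libraries, all above the WT libraries. These had 53.9, 48.3 and 46.95 CPM (log2 0.16 ± 0.09, adjusted p = 0.843 by edgeR). The share of all genes whose libraries separate was not counted, here or in the other comparisons. The difference of the KO effect between cell types passed for 0 of 8 members, where at most 0.0114% of genes passed. Of the lists of partners, regulators and targets, 0 genes passed between KO and WT in any cell type.

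Splicing of the shared intron was measured as the retained share, the mis-splicing index (MSI): exon-intron reads at both ends divided by those reads plus 2 times the spliced reads. In Lin-Kit+ cells that carried a Zrsr1 hairpin, the shared intron of E2f6 was retained at higher shares in every KO library than in every WT library. E2f6 intron 4, whose U12-type ends are given above, was retained at 24.02% and 31.9% in KO cells with sh1 and at 29.9% and 30.6% in KO cells with sh10, in experiments 1 and 2. WT cells had 8.13% and 0% with sh1 and 11.1% and 6.12% with sh10. With the control hairpin the values were 16.5% and 4.29% in KO cells and 12.8% and 0% in WT cells. All 4 KO libraries with a Zrsr1 hairpin lay above the 4 WT libraries with one, above both KO control libraries and above both WT control libraries, in each experiment.

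KO and WT cells with Zrsr1 hairpins averaged 29.1% ± 3.48 and 6.34% ± 4.70. The SD is over 4 libraries each, from 2 hairpins in 2 experiments, which are not 4 independent replicates. The log2 difference of exon-intron to spliced reads was 3.40 ± 1.40, with an unadjusted p of 0.0224 and an adjusted p of 0.998 over 46630 introns in edgeR's diffSpliceDGE. With the experiment as a block it was 3.40 ± 1.14, unadjusted p = 0.000478 and adjusted p = 0.301. Neither passed, and 0% of all introns passed in this comparison. Among the 124743 introns compared for overlap, 0.412% had every KO library above every WT library, and of the 61 E2f introns this one did. Over all alternatives tried the adjusted p lay between 0.301 and 1. KO cells with Zrsr1 hairpins also exceeded KO cells with the control hairpin in every library (log2 2.06 ± 1.39 and adjusted p = 0.938, both with the block), as did 1.9% of introns. The difference between the hairpin effects in KO and WT cells was 1.11 on the log2 scale (adjusted p = 0.985 with the block).

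The reads behind these shares are few and uneven between the ends. Exon-intron reads numbered 43 and 43 in KO cells with sh1 and 82 and 30 with sh10, against 17 and 0 in WT cells with sh1 and 32 and 12 with sh10. The count of 0, in WT sh1 of experiment 2 beside 86 spliced reads, allows a retained share of up to 1.71% (3 reads, counting error only). Summed over experiments, KO cells had 60 reads at the 5′ end and 26 at the 3′ end with sh1 and 105 and 7 with sh10, and WT cells had 14 and 3 with sh1 and 37 and 7 with sh10. In experiment 2 no library had a read at the 3′ end. Taking only the end with fewer reads, the log2 difference between KO and WT cells with Zrsr1 hairpins was 1.41 (unadjusted p = 0.325), and between KO cells with Zrsr1 hairpins and control 0.25. The difference between KO and WT cells from both ends, 3.40 with all libraries, ranged from 2.16 to 4.65 without single libraries. The fit on the end with fewer reads was not repeated in this way.

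In the KO libraries with Zrsr1 hairpins the other 5 introns of E2f6 had lower shares than intron 4. In KO cells with Zrsr1 hairpins, against WT cells with them, intron 1 was retained at 0% to 8.27% against 0% to 10.2%, intron 2 at 0% to 3.08% against 0%, and intron 3 at 0% to 1.05% against 0% to 1.45%. Intron 5 had 0% to 14.6% against 0% to 1.90%, and intron 6 had 0% to 2.24% against 0% to 5.35%. All of these ranges overlap, whereas those of intron 4 do not. The level of E2f6 itself was 13.7 and 9.90 CPM with sh1 and 17.9 and 8.66 with sh10 in KO cells, against 12.3 and 9.06 with sh1 and 18.9 and 11.6 with sh10 in WT cells, a log2 difference of 0.01 ± 0.23.

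**Figure D3:**
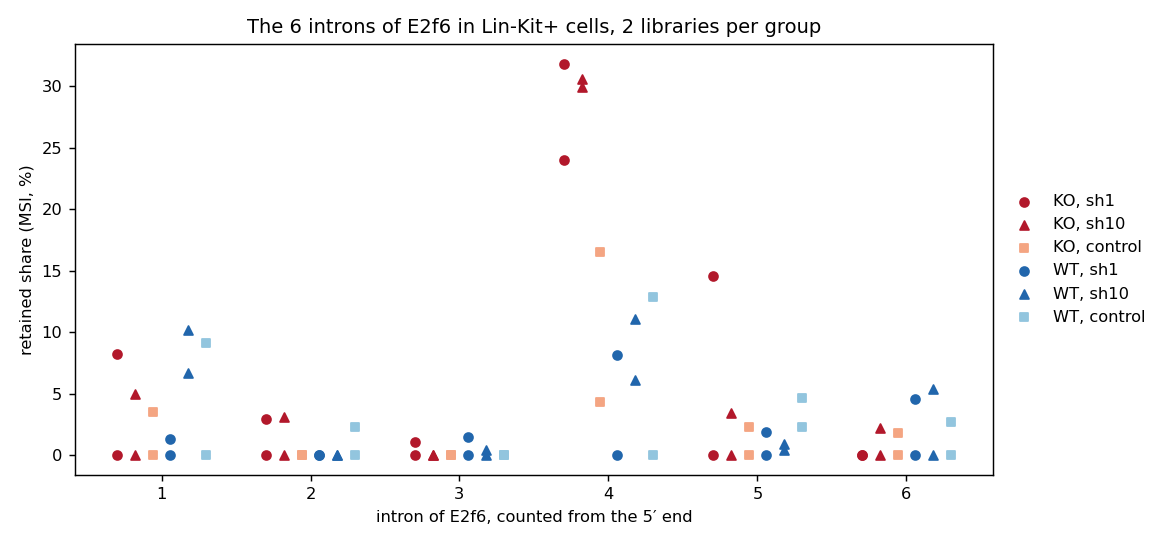
Retained share (MSI, %) of each of the 6 introns of E2f6 in Lin-Kit+ cells, with 1 point per library and the introns in order from the 5′ end. Red symbols are Zrsr2 KO cells with a Zrsr1 hairpin, blue symbols WT cells with one, and pale squares the control hairpin. At intron 4 the 4 KO libraries with a Zrsr1 hairpin lie between 24.02% and 31.9%, above all other libraries.

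In the sorted progenitors the same E2f6 intron had a higher mean in KO than in WT cells of each type, with overlap. In CMP it was retained at 12.96%, 9.63% and 7.89% in KO libraries against 9.68%, 4.62% and 2.46% in WT libraries. In GMP it stood at 10.2%, 12.99% and 13.1% in KO against 8.88%, 11.04% and 6.16% in WT, and in MEP at 10.99%, 6.26% and 10.9% in KO against 7.03%, 3.63% and 6.82% in WT. The lowest KO library of each type lay below the highest WT library, and each KO library lay above the WT library of the same number. The same numbers recur in CMP, GMP and MEP, and the share of all introns with this order was not counted. The log2 differences were 1.12 ± 0.50 in CMP (unadjusted p = 0.0156, adjusted p = 0.674 by diffSpliceDGE), 0.55 in GMP (unadjusted p = 0.174) and 0.76 in MEP (unadjusted p = 0.0560). With the replicate number as a block, 1 effect per number was shared by CMP, GMP, MEP and both genotypes. The unadjusted p was then 0.00950 in CMP (adjusted p = 0.638), 0.0494 in MEP (adjusted p = 0.998) and 0.142 in GMP (adjusted p = 0.996) by diffSpliceDGE. Same-numbered KO and WT libraries deviated together within CMP and within MEP. Between cell types of 1 genotype the same-number correlation was -0.11 to 0.195 in KO and 0.0357 to 0.216 in WT libraries. Without WT CMP 1 the log2 difference in CMP was 1.66 (adjusted p = 0.115), and without WT CMP 3 it was 0.62. Summed over the 9 libraries of each genotype, 942 exon-intron reads stood beside 4100 spliced reads in KO progenitors and 618 beside 4731 in WT progenitors. With the end of fewer reads alone the log2 difference was 0.62 in CMP, 0.06 in MEP and slightly below 0 in GMP. In MEF the values were 12.2%, 9.24% and 7.59% in KO and 11.3%, 11.3% and 11.5% in WT, with a log2 difference of -0.28. The difference of the KO effect between progenitor types passed in no fit, with an unadjusted p of 0.0453 to 0.961 over the settings tried.

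No shared intron of another member separated the genotypes in cells with Zrsr1 hairpins. E2f1 intron 4 was the most retained of them in progenitors, at 17.3% to 19.9% in KO CMP against 16.8% to 20.1% in WT CMP, at 14.4% to 20.2% in KO GMP against 14.3% to 25.1% in WT GMP, and at 14.3% to 16.7% in KO MEP against 11.7% to 14.8% in WT MEP. In MEF it stood at 4.16% to 8.44% in KO and 4.55% to 8.25% in WT. In Lin-Kit+ cells E2f1 intron 4 had 30.7% and 10.8% in KO cells with sh1 and 11.02% and 10.5% with sh10, against 16.4% and 5.79% in WT cells with sh1 and 15.96% and 9.71% with sh10. Its KO and WT ranges overlapped in every cell type. Another intron of the gene, E2f1 intron 2, which is not at the shared position, had 14.8% to 20.8% in KO CMP and 12.2% to 17.7% in WT CMP.

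E2f2 intron 4 had 1 to 6 exon-intron reads in 5 of 9 KO progenitor libraries and 0 in each of the 9 WT progenitor libraries. Summed over these libraries, 18 exon-intron reads stood beside 882 spliced reads in KO cells, a retained share of 1.01%, and 0 stood beside 1055 in WT cells, which allows up to 0.142%. The highest single values were 2.01% in KO CMP, 2.61% in KO GMP and 2.63% in KO MEP. In progenitors the intron entered the test only when at least 10 reads of each kind were asked for over all libraries, and then did not pass, with log2 differences of 1.71, 1.70 and 1.94 in CMP, GMP and MEP (adjusted p = 0.596, 1 and 0.980 by diffSpliceDGE). It met that filter through its KO reads alone, so this test cannot serve as support. The sizes rest on the 0.5 added to counts of 0. The share of all introns with reads in KO progenitors only was not counted. In control-hairpin cells E2f2 intron 4 had 1.20% and 3.56% in KO against 0.388% and 0% in WT, without overlap, as had 6.38% of introns. With Zrsr1 hairpins it had 0% to 2.01% in KO and 0% to 0.831% in WT. Reads covered a fraction of 0.0497 to 0.447 of this intron in KO progenitors and of 0.0551 to 0.369 in WT progenitors. In Lin-Kit+ cells the fraction was 0.175 to 0.590 in experiment 2 and 0.825 to 0.957 in experiment 1.

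E2f3 intron 4 was retained at 0.880% to 5.06% in KO progenitors and 0% to 4.68% in WT progenitors. One KO library with sh10, of experiment 1, stood apart at 31.5% with 56 exon-intron reads, while the KO library with sh10 of experiment 2 had 0 exon-intron reads beside 16 spliced reads. E2f4 intron 3 had 1.16% to 2.80% in KO progenitors and 1.41% to 3.06% in WT progenitors. In MEP it had 2.35%, 1.93% and 2.06% in KO against 1.83%, 1.41% and 1.64% in WT, without overlap, where 3.06% of introns behaved so. In MEF every library lay above the progenitor libraries of its genotype, at 4.82% to 8.52% in KO and 3.81% to 7.50% in WT. The listed alternative of E2f5 intron 3 had 19 exon-intron reads beside 344 spliced reads in KO progenitors, a summed retained share of 2.69%, and 40 beside 442 in WT progenitors, a share of 4.33%. With Zrsr1 hairpins it had 0 exon-intron reads beside 0 to 7 spliced reads in each KO library and 0% to 6.67% in WT libraries.

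**Figure D4:**
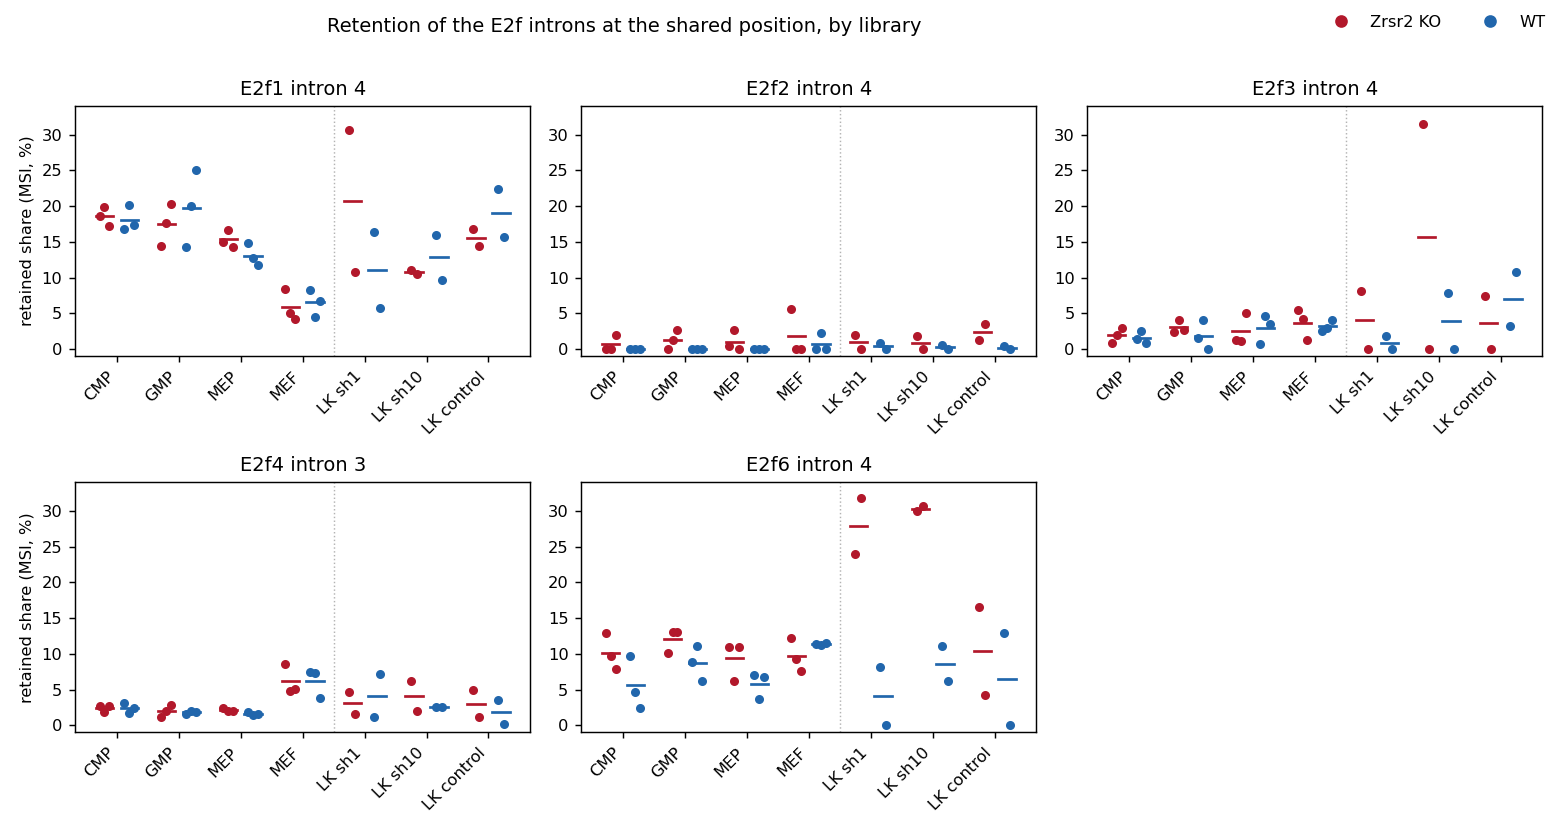
Retained share (MSI, %) of the E2f introns at the shared position in all 36 libraries, 1 point per library with bars at group means. Red points are Zrsr2 KO and blue points WT libraries, and LK stands for Lin-Kit+ cells. E2f6 intron 4 separates the genotypes with sh1 and sh10, while E2f1 intron 4 overlaps between them in every cell type.

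Across all introns of the family, 45 could be tested in progenitors, 10 in MEF and 33 in Lin-Kit+ cells, and 0 passed in any comparison. Over all introns diffSpliceDGE called 0.00641% in CMP, 0.00801% in GMP, 0.00481% in MEP and 0% in MEF and Lin-Kit+ cells. At an unadjusted p under 0.05, 3 E2f introns stood out in CMP, 1 in GMP, 0 in MEP, 1 in MEF, 1 in control-hairpin Lin-Kit+ cells and 2 with the Zrsr1 hairpins, and limma also called 0. Over all introns tested 3844 reached this p in CMP, 1690 in GMP and 2529 in MEP, each of 62434, as did 1397 of 32573 in MEF, 586 of 46630 in control-hairpin Lin-Kit+ cells and 1329 with the Zrsr1 hairpins. Besides E2f6 intron 4, these in CMP were E2f2 intron 2, with 4.21% to 15.0% in KO against 0% to 5.49% in WT, and E2f3 intron 5, with 4.61% to 8.31% in KO against 1.80% to 4.36% in WT. With the Zrsr1 hairpins the other was E2f4 intron 8, at 0% to 0.441% in KO against 0.851% to 2.51% in WT. The difference of the KO effect between progenitor types and the hairpin comparisons likewise gave 0 called introns, of the family and of all introns.

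Counted by overlap alone, every KO library lay above every WT library in 4 of the 61 E2f introns in CMP (3.63% of all introns), 0 in GMP (2.68%), 1 in MEP (3.06%), 0 in MEF (3.29%) and 5 in control-hairpin Lin-Kit+ cells (6.38%). Every KO library lay below every WT library in 1 of the 61 in CMP (2.8% of all introns), 0 in GMP (3.08%), 2 in MEP (2.93%), 2 in MEF (4.07%), 6 in control-hairpin Lin-Kit+ cells (9.29%) and 1, E2f4 intron 8, with the Zrsr1 hairpins (0.578%). Every Zrsr1 hairpin library lay above every control library in 3 E2f introns in KO cells (1.9%) and 1 in WT cells (1.99%), and below every control library in 3 in KO cells (3.01%) and 1 in WT cells (3.59%). The 4 that were higher in KO CMP were E2f1 intron 3, E2f3 intron 5, E2f4 intron 6 and E2f8 intron 8. E2f4 intron 6 had 2.68% to 3.76% in KO CMP against 2.05% to 2.25% in WT CMP, and E2f8 intron 8 had 1.97% to 3.01% in KO CMP against 1.24% to 1.75% in WT CMP.

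The hairpins against Zrsr1 were compared with the control hairpin within each genotype. Without the experiment in the model 0 of 8 members passed edgeR's test in KO or WT cells, and 0% of genes did (1285 and 1325 genes at an unadjusted p under 0.05, with 375 and 370 called by DESeq2). Libraries of the same experiment deviated together, so the fit with the experiment as a block is given beside it. With the block 9% of genes passed in KO cells and 8.75% in WT cells, and E2f4, E2f8 and, in KO cells, E2f1 fell.

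E2f4 had 102 and 61.8 CPM with sh1 and 134 and 72.6 with sh10 in KO cells, against 175 and 103 with the control hairpin, in experiments 1 and 2. In WT cells it had 111 and 61.3 with sh1 and 161 and 91.3 with sh10, against 202 and 108. Both hairpins were below the control in each experiment and genotype, while experiment 2 was lower than experiment 1 throughout. The blocked log2 difference was -0.52 ± 0.09 in KO cells (adjusted p = 0.00998) and -0.46 ± 0.09 in WT cells (adjusted p = 0.0164), against adjusted p = 0.770 and 0.838 without the block, all by edgeR. It was larger with sh1, at -0.69 in KO and -0.71 in WT cells, than with sh10, at -0.35 and -0.21, and only sh1 passed on its own. With the block 6.21% of genes passed for sh1 and 8.81% for sh10 in KO cells, and 5.22% for sh1 and 10.2% for sh10 in WT cells, against at most 0.0224% without it. The difference between sh1 and sh10 was not tested.

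E2f8 had 72.7 and 63.7 CPM with sh1 and 74.2 and 47.7 with sh10 in KO cells, against 108.5 and 78.5 with the control, and 79.1 and 55.5 with sh1 and 74.7 and 57.6 with sh10 in WT cells, against 115 and 96.3. Again every Zrsr1 hairpin library lay below the control of its experiment. The blocked log2 difference was -0.45 ± 0.10 in KO cells (adjusted p = 0.0226) and -0.57 ± 0.10 in WT cells (adjusted p = 0.00898), against adjusted p = 0.595 and 0.447 without the block. E2f8 passed with sh10 alone in both genotypes (log2 -0.54 in KO and -0.60 in WT cells) and with sh1 alone in WT cells (-0.54). E2f1 had 32.4 and 30.6 CPM with sh1 and 43.2 and 30.4 with sh10 in KO cells, against 61.4 and 41.4 with the control, a blocked log2 difference of -0.49 ± 0.12 (adjusted p = 0.0343 by edgeR). In WT cells it had 34.3 and 28.1 with sh1, 56.3 and 45.5 with sh10 and 57.2 and 41.4 with the control. There the sh10 library of experiment 2 was above its control, and the blocked difference of -0.19 ± 0.12 did not pass (adjusted p = 0.408).

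E2f5 had 2.42 and 1.81 CPM with sh1 and 1.73 and 1.42 with sh10 in KO cells, against 4.76 and 3.70 with the control. In WT cells it had 4.65 and 4.94 with sh1 and 2.55 and 1.75 with sh10, against 4.87 and 2.93. All KO hairpin libraries were below both KO controls, and the edgeR difference of -1.12 ± 0.37 did not pass with the block (adjusted p = 0.0945) but passed in DESeq2 (adjusted p = 0.0312). Between KO and WT cells with Zrsr1 hairpins E2f5 had a log2 difference of -0.77 ± 0.30 (adjusted p = 1 by edgeR). The hairpin effect did not differ past the threshold between KO and WT cells for any gene in edgeR, with or without the block.

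**Figure D5:**
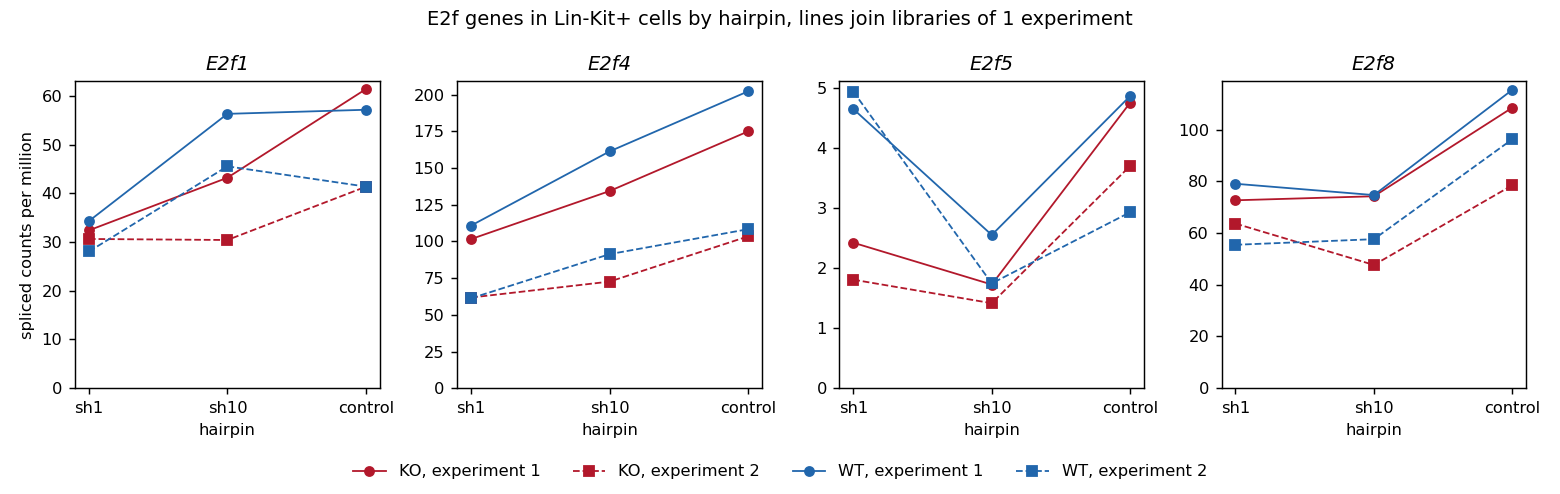
CPM of E2f1, E2f4, E2f5 and E2f8 in Lin-Kit+ cells by hairpin, with sh1 and sh10 against Zrsr1 left of the control, on linear axes. Lines join the libraries of 1 genotype and experiment. E2f4 and E2f8 lie below the control in all 8 libraries with a Zrsr1 hairpin.

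Targets and partners of the family fell in the same comparison. With the block, 15 of 26 S-phase targets fell in KO cells, where 4.38% of genes fell, and 12 of 26 in WT cells, where 4.11% did. All 26 had log2 differences below 0 in both genotypes, with medians of -0.60 in KO and -0.47 in WT cells beside -0.01 and -0.03 over all genes. Orc1 fell by 0.91, Ccna2, the cyclin A gene, by 0.84 and the helicase subunit gene Mcm3 by 0.72 in KO cells, and in WT cells Chaf1a, a histone chaperone gene, fell by 0.80 and Mcm3 by 0.69. Of the dimer partners Tfdp1 fell by 0.55 in KO and 0.56 in WT cells, and of the pocket proteins Rbl1 by 0.62 and 0.57. Of the 7 genes of the MuvB complex and its partners, 4 fell and 1 rose in KO cells and 3 fell and 1 rose in WT cells, among them the mitotic activators Foxm1 at -0.67 and -0.81 and Mybl2 at -0.71 and -0.50. Cdk4 fell by 0.85 and 0.65, and Cdkn1a rose by 0.93 in KO cells. Of the Polycomb partners of E2f6 1 of 10 fell in each genotype, and of its germline targets 0 of 5 tested changed. Without the block 0 genes of these lists passed.

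Markers of cell identity moved in the same libraries. Of the 3 early myeloid markers 1 fell in each genotype with the block, Cd34 by 1.41 in KO and 1.62 in WT cells. Kit (log2 -0.05 in KO and -0.52 in WT cells) and Flt3 (-0.28 and -0.73) did not pass. Of the 4 GMP markers 4 fell in KO and 2 in WT cells, with a summed 1181 to 3914 CPM in KO cells with Zrsr1 hairpins against 4945 to 6173 with the control, and 2363 to 4379 against 5435 to 6242 in WT cells. Neutrophil markers summed to 1771 to 8861 CPM with Zrsr1 hairpins and 1050 to 2852 with the control in KO cells, and 2 of 4 rose in KO and 3 of 4 in WT cells. Macrophage markers summed to 1802 to 2936 CPM with Zrsr1 hairpins and 1159 to 1361 with the control in KO cells, and 2 of 3 rose in each genotype. Over all 17828 genes with the block, 824 rose and 780 fell in KO cells, and 827 rose and 733 fell in WT cells. The part of these markers' cells in the lower levels of E2f4, E2f8 and E2f1 was not tested.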

How the data were processed

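PolyA-selected RNA of 36 libraries was analysed from 1 intron table per library. The deposited tables give whole-number counts of exon-intron reads at both ends of each intron and of spliced reads, per the file headers. The authors' MSI is a percent, and equals the share recomputed from these counts; the deposited covered fraction of each intron entered no test. The build is mm10, per the submitters' processing notes; no aligner, counter or strand setting is named in the labels or headers, so reads of overlapping antisense genes cannot be told apart. Members and lists were chosen with earlier results of these data known.

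Spliced counts were summed per gene and tested over all genes with edgeR 4.0.16 (TMM, filterByExpr, quasi-likelihood test, Benjamini-Hochberg adjustment, threshold 0.05) in R 4.3.3. Progenitors, MEF and Lin-Kit+ cells were fitted separately, and MEF against progenitors over 24 libraries. Introns were tested with diffSpliceDGE, with log2 ratios (0.5 added) and SE from limma 3.58.1. DESeq2 1.42.0 was an alternative. Proteins were aligned with MAFFT 7.526, and exon and intron bases came from GENCODE M21 transcripts. Both tests were tested on simulated data. For introns the simulated spread between libraries was set in advance, not estimated from these libraries. No experiment effect was simulated, so recovery in the real libraries may differ. In KO against WT CMP, MEF and control-hairpin cells, diffSpliceDGE recovered 80, 69 and 28 of 100 introns changed 4-fold. It recovered 15, 11 and 2 of 100 changed 2-fold, in 8000 introns each. In the same order it also called 25, 20 and 4 unchanged introns, and edgeR called 1, 12 and 0 unchanged genes. The named genes are the members, their principal-transcript introns, and list genes past the threshold. Same-numbered libraries deviated together in CMP (r = 0.159 to 0.178), in MEP (0.191 to 0.301) and within a Lin-Kit+ experiment (0.643 to 0.732), the last named in the labels. Whether libraries of 1 Lin-Kit+ group came from separate mice is not stated, so p-values cover the spread between these libraries. Limits on shares with 0 reads cover counting error only.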

Additional observations from a re-analysis of the deposited data

How the results depend on the processing

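Over 232 single results of members and shared introns there were 3046 alternative values. Of these, 2998 stayed on the same side of the threshold, 30 lost a call, 18 gained one and 0 reversed while called. Direction was compared only for results that were called, and some that were not called changed sign. The number of E2f genes called between WT MEP and CMP was 2 in a fit of the compared groups only, against 4, E2f1 (adjusted p = 0.1) and E2f6 (adjusted p = 0.0691) being the lost ones. With the experiment block it was 3 in KO and 2 in WT cells for both Zrsr1 hairpins against control, 2 in KO and 2 in WT cells for sh1, and 1 in KO and 1 in WT cells for sh10, against 0 without it. DESeq2 called 1 member, E2f5, for both hairpins and for sh10 in KO cells. Between WT MEP and CMP E2f1 also lost its call in edgeR with RLE scaling (adjusted p = 0.0623) or no low-count filter (0.0991), and in DESeq2 (0.0512). Between WT MEP and GMP, E2f1 (0.0609) and E2f5 (0.1035) lost theirs in edgeR with the compared groups only, and E2f1 without the filter (0.0673). E2f8 gained one there in edgeR with RLE scaling (0.0490) or no filter (0.0367), and in DESeq2 (0.0390). The replicate block changed no call of a member between KO and WT or between cell types; in GMP (r = -0.0138 to 0.235) and MEF (-0.334 to 0.735) same-numbered libraries did not deviate together. Leaving out single libraries gave 1 to 5 called members between GMP and CMP, 2 to 4 between MEP and CMP, 4 to 6 between MEP and GMP, 6 to 6 between MEF and progenitors and 0 in all other comparisons of genes and introns. The fits with the experiment block were not repeated without single libraries. The class of E2f6 intron 4 was the same with no mismatch allowed at its start. Depth limits the introns: the retained shares of E2f2, E2f3 and E2f5 rest on a few exon-intron reads per library. In simulated control-hairpin KO and WT counts 1 of 100 genes and 28 of 100 introns changed 4-fold were recovered, so a count of 0 there does not bound the change.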

Other observations

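Several introns of the family, picked here for their high shares in WT CMP, had lower shares in WT MEF, while E2f6 intron 4 (11.3% to 11.5% in WT MEF and 2.46% to 9.68% in WT CMP) and E2f4 intron 3 (3.81% to 7.50% and 1.75% to 3.06%) ran the other way. E2f1 intron 4 had a mean retained share of 6.53% in WT MEF and 18.1% in WT CMP, and E2f1 intron 2 had 4.12% and 14.7% in the same groups. E2f8 intron 10 had 6.98% in WT MEF and 15.7% in WT CMP, and E2f4 intron 7 had 7.75% and 14.7%. E2f5 intron 5 stood at 7.29% in WT MEF and 23.3% in WT CMP, on 33 and 81 exon-intron reads. Over all introns, the WT MEF libraries held 1561409 to 1983413 exon-intron reads beside 45458648 to 61124920 spliced reads. The WT CMP libraries held 3116024 to 4204915 beside 62699289 to 71576589. Retention was thus lower in WT MEF over all introns too, and a difference particular to the family was not tested. E2f7 introns 4, 5 and 8 had 0 exon-intron reads in WT CMP, GMP, MEP and MEF.

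E2f4 intron 1 had 10 and 30 exon-intron reads in KO cells with sh10 and 0 and 14 with sh1, against 0 in both KO control libraries, which had 882 spliced reads in all. WT control cells had 4 and 28. The log2 difference between KO cells with Zrsr1 hairpins and control was 4.21 (unadjusted p = 0.00485, adjusted p = 0.998 by diffSpliceDGE), and it rests on the controls at 0.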
